A study of Homo sapiens with 9 samples.

Results

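p53 is a transcription factor that stress stabilises and that switches on genes for cell cycle arrest, cell death, DNA repair and its own shutdown. MDM2, the ubiquitin ligase that marks p53 for destruction, is itself a p53 target, so the pathway carries a built-in brake. U2OS, a human osteosarcoma cell line, is known for wild-type p53 and is widely used to study its targets. The transcripts followed here are those of 34 genes listed as p53 targets or regulators, and each was read by 1 probe set, the brightest on average across the 9 arrays among those assigned to that symbol alone. Of the 34 genes, 31 had such a probe set out of 19775 genes measured. BTG2, BBC3 and FDXR had none and were not analysed here, and neither was the p53 transcript itself.

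Expression was measured on 9 oligonucleotide arrays of U2OS cells: 3 arrays each of cells carrying shBAP1 #1, of cells carrying shBAP1 #2 and of cells carrying a non-targeting hairpin, shControl. BAP1 removes ubiquitin from chromatin proteins and is lost in several cancers, and the study compared gene expression after its depletion. In all 3 groups the plasmid was introduced by lipid transfection, transfected cells were selected as a pool with puromycin, and the cultures were held at the G1/S border by a double block with thymidine, so every group went through a replication arrest. Each BAP1 group is 1 hairpin, and the BAP1 transcript was not analysed here, so the labels were not checked by it.

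Values are log2 expression after robust multi-array averaging (RMA), so a difference of 1 is a doubling of signal. A gene was called higher or lower at a Benjamini-Hochberg adjusted p below 0.05 over all 19775 genes (limma, two-sided, all arrays in 1 fit, n = 3 arrays per group). Standard errors (SE) come from that fit, while SD is the spread of 3 arrays. Nothing in the labels tells if the replicates come from independent cultures, and the p-values therefore cover only the variation among these arrays, which may be technical. In pools of cells, a change in every cell and a change in the share of responding cells cannot be told apart.

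Arrays of 1 group correlated across probe sets at r = 0.995 to 0.997, against 0.977 to 0.990 between groups. With the control arrays, replicate 1 of shBAP1 #2 had a mean r of 0.989, and its replicates 2 and 3 had 0.981 each. The gap between 3' and 5' actin probe sets, which reflects how intact the RNA was, was 0.39 to 0.41 in shBAP1 #1, 0.39 to 0.46 in shBAP1 #2 and 0.47 to 0.51 in shControl. The actin gap thus separated both shRNAs from the controls, as many changes below do, and its part in them was not tested. The same gap for GAPDH overlapped between the groups. It was -0.052 to -0.034 in shBAP1 #1, -0.045 to -0.031 in shBAP1 #2 and -0.061 to -0.018 in shControl. Of the markers of mesenchymal and bone-forming cells, VIM (13.92 to 14.17 over all arrays), SPARC, COL1A1, FN1 and RUNX2 (6.62 to 8.26) were brighter on average than the median probe set (5.44), whereas TWIST1 (3.06 to 3.36) was not. The blood cell markers PTPRC and CD3E, the liver marker ALB and the epithelial marker CDH1 were below that median, and the epithelial marker EPCAM (5.85 to 6.70) was above it.

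p53 binds DNA as a tetramer at a pair of 10-base half-sites. Windows of RefSeq promoter sequence (GRCh38.p14), running from 250 bases before a transcript start to 50 after it, were at hand for 27 of the 34 genes (38 windows), and were searched for the p53 half-site consensus, which reads the same on both strands. A half-site without mismatch was in 8 of the 38 windows (21.1%), against 6.63% of all 35116 windows. Pairs of half-sites up to 13 bases apart with no mismatch were in 10 of the 35116 windows (0.0285%), and 1 of them belongs to DDB2. Pairs with at least 18 of 20 matching bases were in 10 of the 38 windows (26.3%), against 7.82% of all windows. Some windows of a gene overlap each other. A match is a description of the sequence and not a binding site shown by these data, and a window without one says nothing about p53 sites farther away, such as the well-known distal sites of CDKN1A.

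The sequences below come from genes that had a match and that differed between the 2 hairpins or feed back on p53. Of the other such genes, TRIAP1, TP53I3, PMAIP1, SESN2, GDF15, MDM4 and PPM1D had no match in their windows. No window was at hand for GADD45A, PHLDA3, TNFRSF10B, TNFRSF10C, TNFRSF10D, TP53INP1 and RRM2B. Each sequence is 5′ to 3′ on the strand of the gene. Capitals mark the half-sites, and in the pairs of MDM2, FAS, AEN and CCNG1 they include the 2 mismatched bases. The DDB2 pair, with 1 base between its half-sites, lies 6 to 26 bases after a start (chr11:47214975-47215004, plus strand). The MDM2 pair lies 94 to 75 bases before one annotated start and 101 to 82 before another (chr12:68808918-68808947, plus strand), the FAS pair 122 to 103 bases before a start (chr10:88991304-88991333, plus strand) and the AEN pair 34 to 15 bases before its start (chr15:88621301-88621330, plus strand). The marked CCNG1 stretches lie 9 bases apart, 42 to 14 bases before one start and 66 to 38 before another (chr5:163437529-163437558, plus strand). In each of these stretches the mismatch is an A in place of the C that the consensus fixes, so neither is a half-site without mismatch. RPS27L (chr15:63157517-63157546, minus strand), EI24 (chr11:125569457-125569486, plus strand), PLK2 (chr5:58460199-58460228, minus strand) and SESN1 (chr6:109009018-109009047, minus strand) are shown by their half-site without mismatch, and SESN1 also held a pair with 18 of 20 matches that is too long to show.
DDB2: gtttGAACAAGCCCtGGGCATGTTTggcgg
MDM2: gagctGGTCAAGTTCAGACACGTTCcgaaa
FAS: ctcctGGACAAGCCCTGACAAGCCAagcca
AEN: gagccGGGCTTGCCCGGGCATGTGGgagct
CCNG1: GAAAATGCCCccttctcgcGAGAAAGCCCc
RPS27L: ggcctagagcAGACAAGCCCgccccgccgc
EI24: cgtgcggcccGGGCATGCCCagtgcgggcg
PLK2: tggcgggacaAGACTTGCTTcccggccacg
SESN1: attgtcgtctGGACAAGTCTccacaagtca

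Most p53 targets called with either hairpin were higher, the cofactor TP53INP1 and the death receptor TNFRSF10B among them by over 1 log2 unit on the probe sets used, and 16 of the 31 members differed between the hairpins themselves. With shBAP1 #1, 18 of 31 members were called higher (58.1%), against 13.0% of all genes, and 0 were called lower by limma, against 12.6% of all genes (2 were lower at an unadjusted p below 0.05, POLH and MDM4). With shBAP1 #2, 16 of 31 were called higher (51.6%), against 16.9% of all genes, and 2 lower (6.45%), against 16.5%. In either direction, 25.6% of all genes were called with shBAP1 #1 and 33.4% with shBAP1 #2. The median log2 change of the members was 0.39 with shBAP1 #1 and 0.31 with shBAP1 #2, against 0.01 and 0.02 over all genes. Counted by array, 20 members with shBAP1 #1 and 16 with shBAP1 #2 had all 3 knockdown arrays above all 3 controls, where 20.1% and 22.8% of all genes did, and 1 member with each, POLH, had all 3 below, where 18.7% and 20.1% did. Members and the further lists below were chosen with earlier results of these data known. Their shares beside those of all genes are therefore descriptions and not tests. Both comparisons use the same 3 control arrays, so they are not independent of each other. As a description only, 13 members were called higher with both (6.22% of all genes), 0 lower with both (5.49%) and 0 in opposite directions (3.44%). For the mean of both hairpins against shControl, 19 members were called higher, against 14.1% of all genes, and 1 lower (POLH), against 14.6% (28.7% in either direction).

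**Figure D1:**
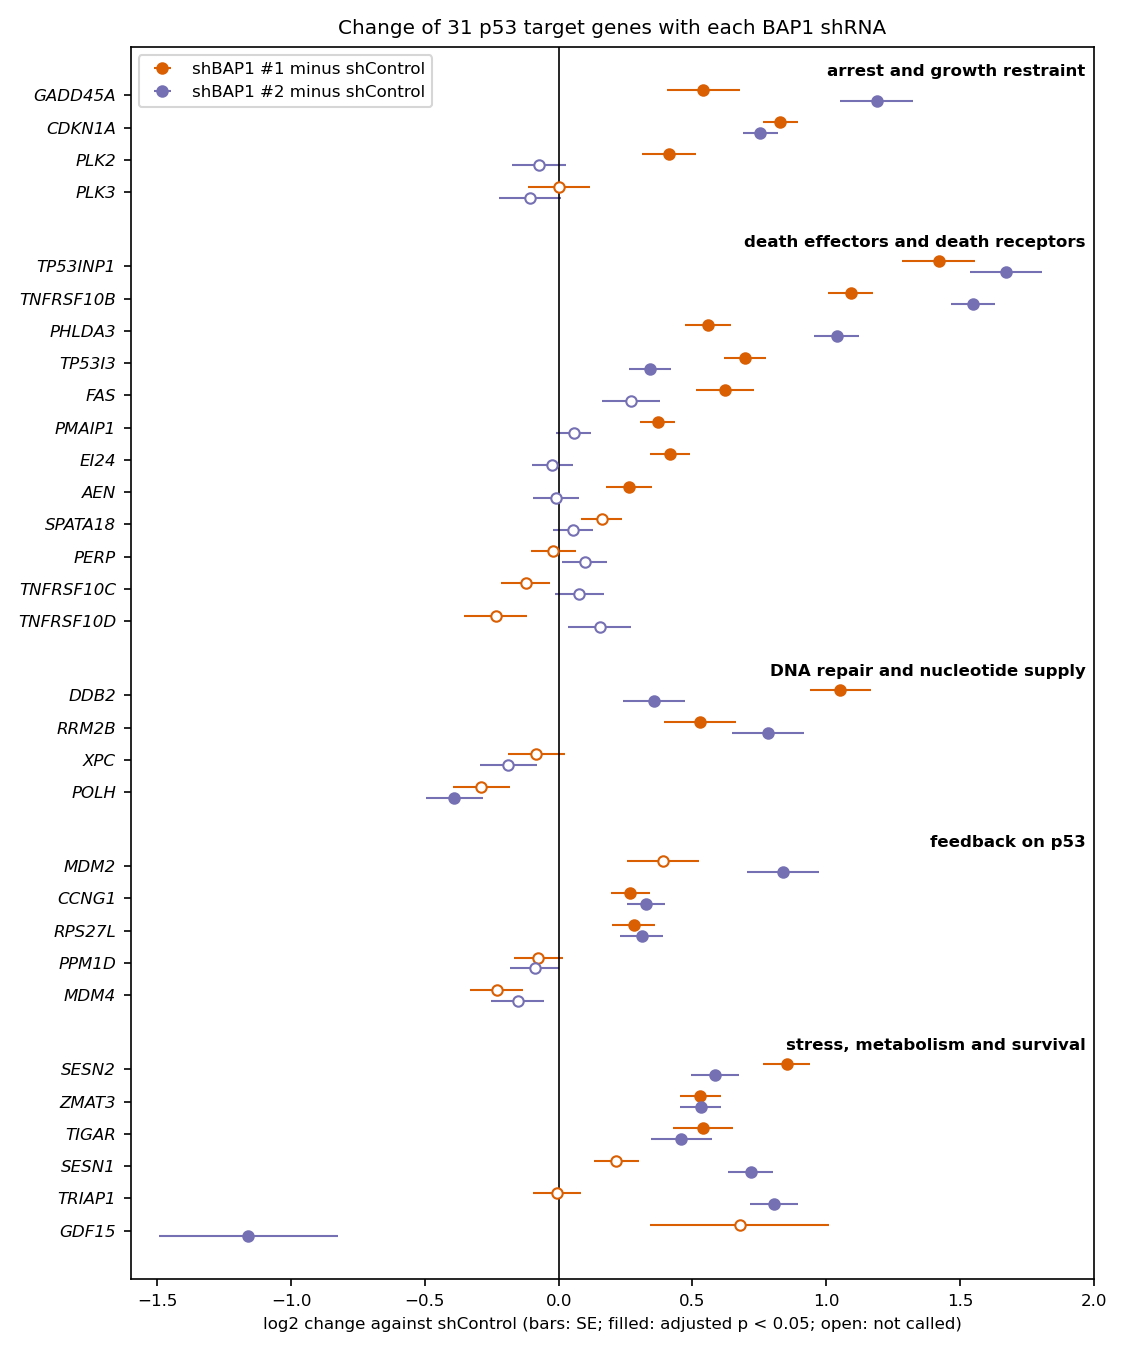
Log2 change of each of the 31 p53 target genes against shControl, by role, with shBAP1 #1 in orange and shBAP1 #2 in purple (points: fitted change, bars: SE, filled: called). TP53INP1 and TNFRSF10B lie farthest to the right with both hairpins, and GDF15 is the member on opposite sides of 0 by the widest gap.

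Of the arrest genes, CDKN1A changed most with shBAP1 #1 and GADD45A with shBAP1 #2. CDKN1A encodes p21, the inhibitor of cyclin-dependent kinases through which p53 stops the cell cycle. CDKN1A measured 11.79, 11.79 and 11.73 with shBAP1 #1 and 11.60, 11.74 and 11.75 with shBAP1 #2, against 10.91, 10.95 and 10.96 in shControl. No knockdown array came near a control array, and the 2 hairpins overlapped each other. The change was 0.83 ± 0.07 (SE, adjusted p = 1.7e-05) with shBAP1 #1 and 0.75 ± 0.07 (adjusted p = 2.1e-05) with shBAP1 #2, or 1.78-fold and 1.69-fold.

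GADD45A, a stress protein that binds PCNA and slows the cycle, was 11.67, 11.90 and 11.60 with shBAP1 #1 and 12.11, 12.44 and 12.57 with shBAP1 #2, against 10.98, 11.37 and 11.20 in shControl. The 3 groups formed 3 separate steps, with shBAP1 #2 on top. Its change was 0.54 ± 0.14 (adjusted p = 0.013) with shBAP1 #1 and 1.19 ± 0.14 (adjusted p = 9.2e-05) with shBAP1 #2. The shBAP1 #1 call was lost without shControl replicate 1 (0.44, adjusted p = 0.062) and without shBAP1 #1 replicate 2 (0.45, adjusted p = 0.057).

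The polo-like kinases went other ways. PLK2, a stress-induced kinase of the centrosome cycle, was 10.32, 10.41 and 10.40 with shBAP1 #1 and 10.01, 9.81 and 9.85 with shBAP1 #2, against 10.02, 9.74 and 10.13 in shControl. It was thus called higher with shBAP1 #1 (0.41 ± 0.10, adjusted p = 0.012) and not with shBAP1 #2 (-0.07 ± 0.10, adjusted p = 0.65). For PLK3, a kinase activated by DNA damage, the answer depended on the probe set. The one used changed by 0.00 and -0.11 and was not called, whereas another of nearly the same brightness was higher with shBAP1 #1 (0.42, adjusted p = 0.025 over all probe sets) and with shBAP1 #2 (0.49, adjusted p = 0.0080).

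**Figure D2:**
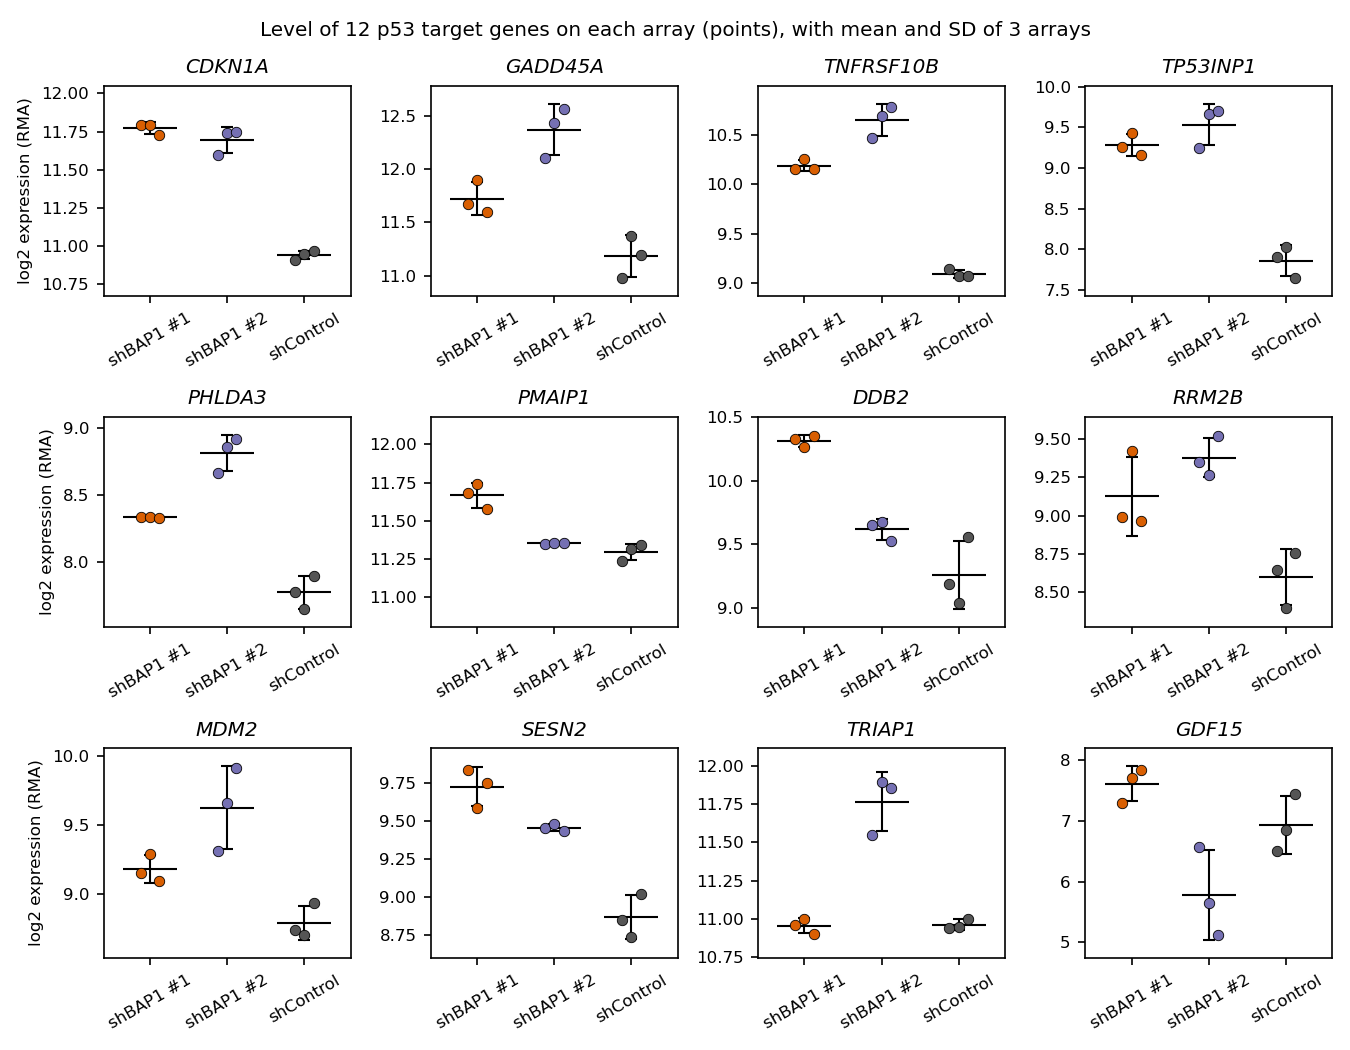
Log2 expression of 12 p53 target genes on every array, with shBAP1 #1, shBAP1 #2 and shControl from left to right (points: arrays, long bars: mean, whiskers: SD of 3 arrays). CDKN1A shows both hairpins level with each other and above the controls, TRIAP1 shows shBAP1 #2 alone above the others, and GDF15 shows wide spread in every group.

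Of 12 death genes measured, 8 were called higher with shBAP1 #1 (66.7%, against 13.0% of all genes) and 4 with shBAP1 #2 (33.3%, against 16.9%), and 0 lower with either (limma, and also 0 at an unadjusted p below 0.05). These 12 include the decoy receptors TNFRSF10C and TNFRSF10D, which do not pass on a death signal. TNFRSF10B, the death receptor DR5 for the ligand TRAIL, was 10.16, 10.25 and 10.15 with shBAP1 #1 and 10.47, 10.69 and 10.78 with shBAP1 #2, against 9.14, 9.07 and 9.07 in shControl. The groups did not overlap, and both hairpins stood over 1 log2 unit above the controls. The change was 1.09 ± 0.08 (adjusted p = 1.5e-05) and 1.55 ± 0.08 (adjusted p = 2.2e-06), or 2.13-fold and 2.93-fold, which placed the gene 169th and 64th from the top of all 19775 changes. Of its other 3 probe sets, the 2 bright ones were called higher with both hairpins (0.53 and 0.63 with shBAP1 #1, 0.89 and 1.02 with shBAP1 #2). Averaged over all 4, the change was 0.51 and 0.95.

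Its neighbours in the receptor family are decoys that bind TRAIL without passing on the death signal. TNFRSF10C was 6.04 to 6.35 with shBAP1 #1 and 6.28 to 6.45 with shBAP1 #2, against 6.21 to 6.39 in shControl, and was called with neither. TNFRSF10D was 3.91 to 4.06 with shBAP1 #1 and 4.28 to 4.54 with shBAP1 #2, against 3.97 to 4.45 in shControl, dimmer on every array than the median probe set, a range in which RMA compresses differences. Neither decoy was called against shControl, with changes between -0.24 and 0.15. Without shControl replicate 1, TNFRSF10D was called lower with shBAP1 #1 (-0.36, adjusted p = 0.043).

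FAS, the receptor for FAS ligand, was 9.76, 10.04 and 9.72 with shBAP1 #1 and 9.37, 9.51 and 9.59 with shBAP1 #2, against 9.14, 9.12 and 9.39 in shControl. Its shBAP1 #1 arrays were above all others, while those of shBAP1 #2 reached into the control range. It was called with shBAP1 #1 (0.62 ± 0.11, adjusted p = 0.0017) and not with shBAP1 #2 (0.27 ± 0.11, adjusted p = 0.083), though it was with shBAP1 #2 when shControl replicate 3 was left out (0.36, adjusted p = 0.036). Of 5 probe sets, 4 were higher with shBAP1 #1 and 2 with shBAP1 #2, and the remaining dim one, which is the only one without a suffix for shared probes, was called with neither.

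TP53INP1, a nuclear cofactor that favours death-promoting p53 targets, was 9.26, 9.43 and 9.16 with shBAP1 #1 and 9.25, 9.66 and 9.70 with shBAP1 #2, against 7.91, 8.03 and 7.65 in shControl. Every knockdown array exceeded the highest control by over 1 log2 unit. Its change was 1.42 ± 0.14 (adjusted p = 4.2e-05) and 1.67 ± 0.14 (adjusted p = 1.5e-05), ahead of the other members on the probe sets used. Averaged over its 3 probe sets it changed by 0.60 and 0.84, below DDB2 with shBAP1 #1 (1.05) and GADD45A with shBAP1 #2 (1.19). Of its other 2 probe sets, the brighter was called higher with shBAP1 #2 only (0.79, adjusted p = 0.0016, against 0.41 and adjusted p = 0.069 with shBAP1 #1), and the dimmer was called with neither.

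PHLDA3, which competes with AKT for membrane lipids and so blunts survival signalling, was 8.33 on each of the 3 shBAP1 #1 arrays and 8.67, 8.86 and 8.92 with shBAP1 #2, against 7.78, 7.65 and 7.90 in shControl. Like GADD45A it formed 3 steps, at 0.56 ± 0.09 (adjusted p = 0.00071) and 1.04 ± 0.09 (adjusted p = 1.6e-05). TP53I3, an oxidoreductase that raises reactive oxygen, had the opposite order, with 10.91, 11.04 and 10.82 with shBAP1 #1 and 10.57, 10.64 and 10.49 with shBAP1 #2, against 10.18, 10.17 and 10.33 in shControl. It was called with both, at 0.70 ± 0.08 (adjusted p = 0.00011) and 0.34 ± 0.08 (adjusted p = 0.0066).

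A further 3 death genes were called with shBAP1 #1 and not with shBAP1 #2. PMAIP1, which encodes the BH3-only protein NOXA that neutralises MCL1, was 11.68, 11.74 and 11.58 with shBAP1 #1 and 11.35, 11.36 and 11.35 with shBAP1 #2, against 11.24, 11.31 and 11.34 in shControl. Its change was 0.37 ± 0.07 (adjusted p = 0.0018) with shBAP1 #1 and 0.06 ± 0.07 (adjusted p = 0.58) with shBAP1 #2. EI24, a membrane protein first found as a p53-induced gene, was 10.19, 10.06 and 10.06 with shBAP1 #1 and 9.57, 9.67 and 9.75 with shBAP1 #2, against 9.58, 9.75 and 9.73 in shControl. The change was 0.42 ± 0.08 (adjusted p = 0.0022) and -0.02 ± 0.08 (adjusted p = 0.86).

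AEN, a nuclease that enhances apoptosis, was called higher with shBAP1 #1 (0.26 ± 0.09, adjusted p = 0.047) and not with shBAP1 #2 (-0.01 ± 0.09, adjusted p = 0.95). That call lay close to the threshold and was lost in 9 of 17 other settings. They include leaving out shControl replicate 1 (0.26, adjusted p = 0.12) or 2 (0.20, adjusted p = 0.16), shBAP1 #1 replicate 1 (0.24, adjusted p = 0.14), 2 (0.26, adjusted p = 0.10) or 3 (0.28, adjusted p = 0.073), and shBAP1 #2 replicate 2 (0.26, adjusted p = 0.062). With the replicate block its adjusted p was 0.068. PERP, a desmosomal membrane protein, and SPATA18, which takes part in mitochondrial quality control and was below the median level, were called with neither hairpin, at changes between -0.02 and 0.16.

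Of the 4 repair genes, 2 were called higher with each hairpin, against 13.0% of all genes with shBAP1 #1 and 16.9% with shBAP1 #2, and 1 was called lower with shBAP1 #2, against 16.5%. DDB2, the damage sensor that starts nucleotide excision repair and the gene with the mismatch-free p53 pair shown above, was 10.33, 10.26 and 10.35 with shBAP1 #1 and 9.65, 9.67 and 9.52 with shBAP1 #2, against 9.19, 9.03 and 9.55 in shControl. The shBAP1 #1 arrays stood apart from all others, whereas the lowest shBAP1 #2 array lay just under the highest control. Its change was 1.05 ± 0.12 (adjusted p = 9.4e-05) with shBAP1 #1 and 0.36 ± 0.12 (adjusted p = 0.036) with shBAP1 #2. The shBAP1 #2 call was lost with equal array medians (0.34, adjusted p = 0.053) and with only the 2 groups fitted (0.36, adjusted p = 0.072). It was also lost without shControl replicate 1 (0.32, adjusted p = 0.12) or 2 (0.24, adjusted p = 0.13), shBAP1 #1 replicate 1 (0.36, adjusted p = 0.052), and shBAP1 #2 replicate 1 (0.34, adjusted p = 0.080) or 2 (0.33, adjusted p = 0.11).

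RRM2B, the p53-inducible small subunit of ribonucleotide reductase that supplies nucleotides for repair, was 8.99, 9.42 and 8.97 with shBAP1 #1 and 9.35, 9.27 and 9.52 with shBAP1 #2, against 8.64, 8.39 and 8.76 in shControl. All knockdown arrays were above the controls and the hairpins overlapped. The change was 0.53 ± 0.14 (adjusted p = 0.014) and 0.78 ± 0.14 (adjusted p = 0.0011). With shBAP1 #1 the call was lost without shControl replicate 2 (0.43, adjusted p = 0.060).

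XPC, which recognises helix distortions, was not called, at -0.08 ± 0.11 and -0.19 ± 0.11, though without shBAP1 #2 replicate 1 it was called lower with shBAP1 #2 (-0.29, adjusted p = 0.040). POLH, the polymerase that copies past ultraviolet damage, was 8.14, 7.96 and 8.13 with shBAP1 #1 and 8.12, 7.97 and 7.83 with shBAP1 #2, against 8.38, 8.17 and 8.55 in shControl. All its knockdown values were below all control values. It was called lower with shBAP1 #2 (-0.39 ± 0.11, adjusted p = 0.016) and not with shBAP1 #1 (-0.29 ± 0.11, adjusted p = 0.076). The shBAP1 #2 call was lost without shControl replicate 1 (-0.38, adjusted p = 0.052) or 3 (-0.30, adjusted p = 0.064) or shBAP1 #2 replicate 3 (-0.32, adjusted p = 0.069), while a shBAP1 #1 call appeared without shControl replicate 2 (-0.39, adjusted p = 0.027). It was also lost with the mean of its 6 probe sets (-0.21, adjusted p = 0.20) and with a probe set without a suffix preferred (-0.24, adjusted p = 0.19). The 6 POLH probe sets did not move together, and the dimmest was called higher with shBAP1 #1 (0.45, adjusted p = 0.018).

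Among the 5 genes that feed back on p53, MDM2 was 9.15, 9.29 and 9.10 with shBAP1 #1 and 9.31, 9.66 and 9.91 with shBAP1 #2, against 8.73, 8.70 and 8.93 in shControl. The groups did not overlap, and replicate 1 of shBAP1 #2 was the nearest of its group to the others. MDM2 was called with shBAP1 #2 (0.84 ± 0.13, adjusted p = 0.00072, 1.79-fold) and missed the threshold with shBAP1 #1 (0.39 ± 0.13, adjusted p = 0.057). It passed with shBAP1 #1 in 6 of 17 other settings, among them without shBAP1 #2 replicate 1 (adjusted p = 0.011) or 3 (adjusted p = 0.024) and with the replicate block (adjusted p = 0.044), at the same change of 0.39. With shBAP1 #2, 7 of 10 MDM2 probe sets were called higher, at changes of 0.05 to 0.93 over all 10. With shBAP1 #1 the changes were -0.08 to 0.41, and the smallest adjusted p over all probe sets was 0.076.

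CCNG1, cyclin G1, which recruits a phosphatase to MDM2, was 12.38, 12.51 and 12.36 with shBAP1 #1 and 12.36, 12.54 and 12.53 with shBAP1 #2, against 12.13, 12.16 and 12.16 in shControl. The tight controls lay below every knockdown array. The change was 0.27 ± 0.07 (adjusted p = 0.019) and 0.33 ± 0.07 (adjusted p = 0.0049), and with shBAP1 #1 the call was lost without shControl replicate 1 (0.26, adjusted p = 0.064) or shBAP1 #1 replicate 2 (0.22, adjusted p = 0.077).

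RPS27L, a ribosomal protein paralogue that binds MDM2, was 13.72, 13.87 and 13.68 with shBAP1 #1 and 13.67, 13.80 and 13.88 with shBAP1 #2, against 13.39, 13.52 and 13.52 in shControl. Its change was 0.28 ± 0.08 (adjusted p = 0.025) and 0.31 ± 0.08 (adjusted p = 0.012). The shBAP1 #1 call was lost without shControl replicate 1 (0.24, adjusted p = 0.10) or shBAP1 #1 replicate 1 (0.30, adjusted p = 0.053) or 2 (0.23, adjusted p = 0.097). The shBAP1 #2 call was lost without shControl replicate 1 (0.27, adjusted p = 0.054) or shBAP1 #2 replicate 3 (0.26, adjusted p = 0.051). Both were lost when its 3 probe sets were averaged (0.28, adjusted p = 0.099, and 0.27, adjusted p = 0.090). Of its other 2 probe sets, one was called higher with both hairpins (0.51 and 0.69) and one with neither (0.04 and -0.20).

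The other 2 brakes were not called. PPM1D, the phosphatase WIP1 that dephosphorylates p53 and its kinases, changed by -0.08 ± 0.09 and -0.09 ± 0.09. MDM4, a relative of MDM2 that holds p53 inactive, changed by -0.23 ± 0.10 and -0.15 ± 0.10, and with the mean of its 6 probe sets it was called lower with shBAP1 #2 (-0.24, adjusted p = 0.039).

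All 6 stress, metabolism and survival genes measured were called with shBAP1 #2, 5 higher and 1 lower, against 33.4% of all genes in either direction, and 3 were called higher with shBAP1 #1, against 13.0%. SESN2, a sestrin that restrains mTORC1 under stress, was 9.83, 9.58 and 9.75 with shBAP1 #1 and 9.45, 9.48 and 9.43 with shBAP1 #2, against 8.85, 8.74 and 9.02 in shControl, at 0.85 ± 0.09 (adjusted p = 6.8e-05) and 0.58 ± 0.09 (adjusted p = 0.00049). Its relative SESN1 was 8.46, 8.45 and 8.48 with shBAP1 #1 and 8.79, 8.97 and 9.13 with shBAP1 #2, against 8.28, 8.20 and 8.26 in shControl, at 0.22 ± 0.08 (adjusted p = 0.089) and 0.72 ± 0.08 (adjusted p = 0.00010). The sestrins thus stood in opposite orders, SESN2 highest with shBAP1 #1 and SESN1 highest with shBAP1 #2. SESN1 passed the threshold with shBAP1 #1, at the same 0.22, without shBAP1 #2 replicate 1 (adjusted p = 0.030) or 3 (adjusted p = 0.048).

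ZMAT3, a zinc finger protein that binds RNA and is among the most widely shared p53 targets, was 10.36, 10.46 and 10.25 with shBAP1 #1 and 10.27, 10.35 and 10.46 with shBAP1 #2, against 9.78, 9.87 and 9.84 in shControl. On the probe set used it was higher by 0.53 ± 0.08 with each hairpin (adjusted p = 0.00055 with shBAP1 #1 and 0.00038 with shBAP1 #2). Of its 5 probe sets, 4 were called higher with each. TIGAR, a phosphatase that lowers glycolytic flux, was 11.03, 11.26 and 10.85 with shBAP1 #1 and 10.84, 10.96 and 11.11 with shBAP1 #2, against 10.54, 10.38 and 10.61 in shControl, at 0.54 ± 0.11 (adjusted p = 0.0048) and 0.46 ± 0.11 (adjusted p = 0.0090). Every knockdown array exceeded every control for both genes.

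TRIAP1, a small mitochondrial protein that opposes apoptosis, was 10.96, 11.00 and 10.90 with shBAP1 #1 and 11.55, 11.90 and 11.86 with shBAP1 #2, against 10.94, 10.95 and 11.00 in shControl. It was higher with shBAP1 #2 (0.80 ± 0.09, adjusted p = 8.4e-05) and sat on the controls with shBAP1 #1 (-0.01 ± 0.09, adjusted p = 0.98). GDF15, a secreted stress cytokine, was 7.29, 7.72 and 7.84 with shBAP1 #1 and 6.57, 5.65 and 5.12 with shBAP1 #2, against 6.51, 6.86 and 7.45 in shControl. Its arrays spread widely in every group, and each hairpin overlapped the controls.

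GDF15 was called lower with shBAP1 #2 (-1.16 ± 0.34, adjusted p = 0.021) and not called with shBAP1 #1 (0.68 ± 0.34, adjusted p = 0.19). The shBAP1 #2 call was lost without shControl replicate 3 (-0.91, adjusted p = 0.087) or shBAP1 #2 replicate 2 (-1.09, adjusted p = 0.071) or 3 (-0.83, adjusted p = 0.082). The probe set used is of the type marked as open to cross-hybridisation, and the other 2, both dim, were not called (-0.13 and -0.20 with shBAP1 #2).

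**Figure D3:**
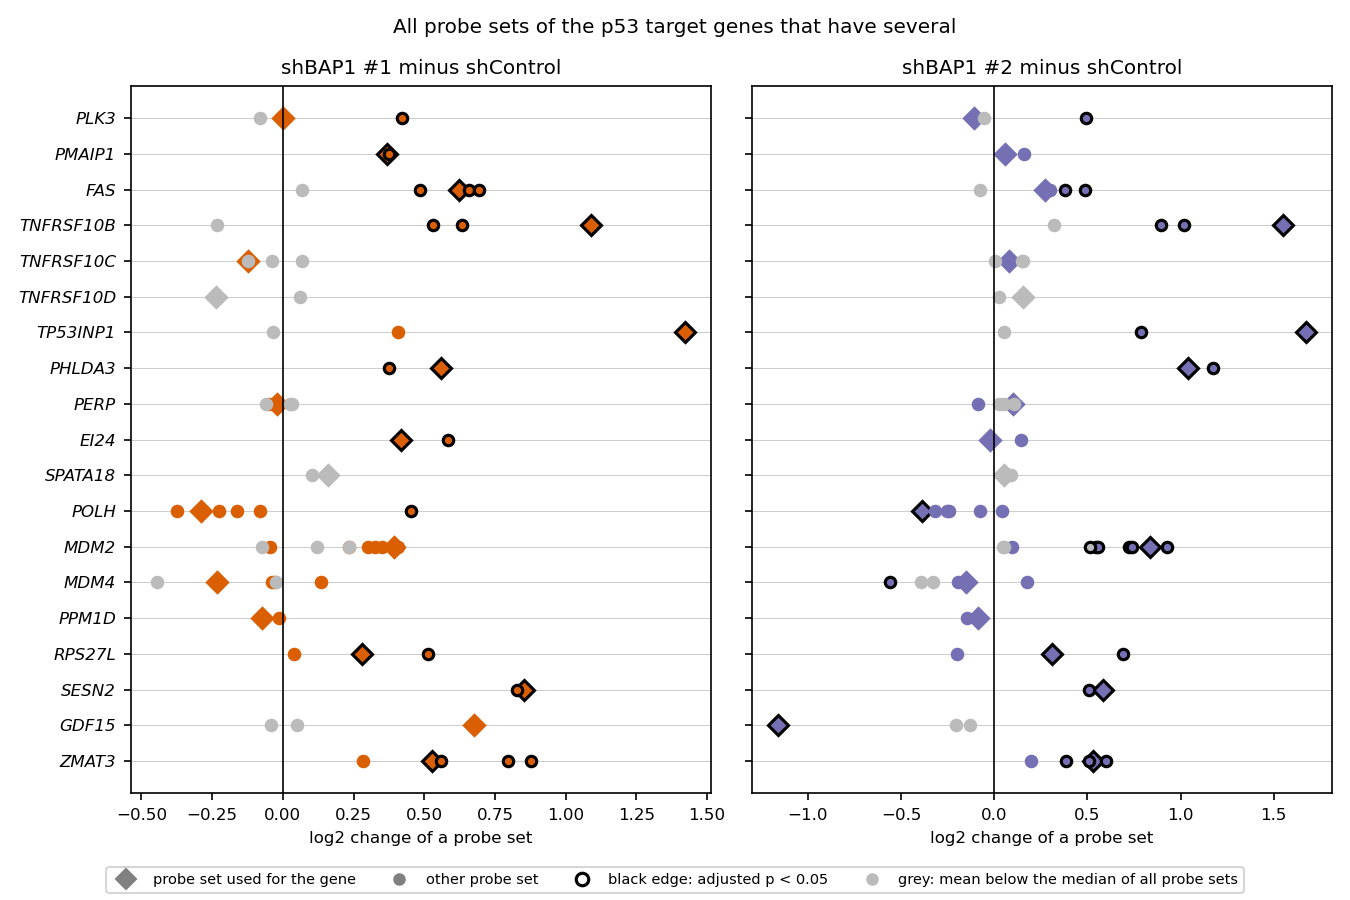
Log2 change of every probe set of the 19 members that have several, with shBAP1 #1 minus shControl on the left and shBAP1 #2 minus shControl on the right. Diamonds are the probe sets used, black edges mark adjusted p below 0.05 over all probe sets, and grey marks means below the median. SESN2, PHLDA3 and ZMAT3 have probe sets lying on 1 side of 0, while PLK3, POLH and RPS27L have probe sets on both sides or at 0.

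Set directly against each other, the 2 hairpins differed for about as many members in one direction as in the other. Of the 31 members, 7 were higher and 9 lower with shBAP1 #2 than with shBAP1 #1 (22.6% and 29.0%), against 17.1% and 17.6% of all genes (34.7% in either direction). The median difference was -0.01, against 0.01 over all genes. This comparison does not use the control arrays other than for the estimate of the spread.

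Higher with shBAP1 #2 than with shBAP1 #1 were TRIAP1 (0.81 ± 0.09, adjusted p = 6.1e-05), GADD45A (0.65 ± 0.14), SESN1 (0.50 ± 0.08), PHLDA3 (0.48 ± 0.09), TNFRSF10B (0.46 ± 0.08), MDM2 (0.45 ± 0.13) and TNFRSF10D (0.39 ± 0.12, adjusted p = 0.024). All 3 shBAP1 #2 arrays were above all 3 of shBAP1 #1 for each of these 7, as they were for 22.1% of all genes. The MDM2 difference was not called on a probe set without a suffix (0.15, adjusted p = 0.55), nor that of TNFRSF10D when its 2 probe sets were averaged (0.18, adjusted p = 0.12). The MDM2 difference was also no longer called without shBAP1 #1 replicate 1 (0.43, adjusted p = 0.073) or 3 (0.40, adjusted p = 0.078) or shBAP1 #2 replicate 2 (0.43, adjusted p = 0.071) or 3 (0.30, adjusted p = 0.089). That of TNFRSF10D was lost without shBAP1 #1 replicate 1 (0.39, adjusted p = 0.065) or 2 (0.35, adjusted p = 0.079) or shBAP1 #2 replicate 3 (0.31, adjusted p = 0.099).

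Lower with shBAP1 #2 than with shBAP1 #1 were GDF15 (-1.84 ± 0.34, adjusted p = 0.0015), DDB2 (-0.70 ± 0.12, adjusted p = 0.00079), PLK2 (-0.48 ± 0.10), EI24 (-0.44 ± 0.08), TP53I3 (-0.36 ± 0.08), FAS (-0.35 ± 0.11), PMAIP1 (-0.31 ± 0.07), AEN (-0.27 ± 0.09) and SESN2 (-0.27 ± 0.09). All 3 shBAP1 #2 arrays were below all 3 of shBAP1 #1 for each of these 9, as they were for 21.8% of all genes. The GDF15 difference rests on the probe set open to cross-hybridisation, since with a dim one without a suffix it was -0.25 (adjusted p = 0.17), and it was -0.73 when all 3 probe sets were averaged (adjusted p = 0.0020). The genes grouped as death genes thus lay on both sides, 3 higher, of which TNFRSF10D is a decoy receptor, and 5 lower. The FAS difference was lost when its 5 probe sets were averaged (-0.23, adjusted p = 0.095) and on the dim probe set without a suffix (-0.14, adjusted p = 0.38). It was also lost without shBAP1 #1 replicate 2 (-0.25, adjusted p = 0.10) or shBAP1 #2 replicate 1 (-0.29, adjusted p = 0.086) or 2 (-0.36, adjusted p = 0.062). Those of AEN and SESN2 were lost in 5 and 6 of 9 fits without 1 array, at adjusted p up to 0.12 (AEN without shBAP1 #2 replicate 3, -0.20) and 0.14 (SESN2 without shBAP1 #1 replicate 1, -0.21). The PMAIP1 call held in all 17 other settings. Its other probe set, fitted singly, differed by -0.22 and was not called (adjusted p = 0.066 over all probe sets).

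The remaining 15 members were not called between the hairpins on the probe sets used. Fitted singly, the dimmest POLH probe set was lower with shBAP1 #2 than with shBAP1 #1 (-0.70, adjusted p = 0.00090 over all probe sets). So was another probe set of MDM4 (-0.33, adjusted p = 0.011). The rest were not called, at -0.24 to 0.30 for POLH and -0.53 to 0.21 for MDM4. CDKN1A differed by -0.08 ± 0.07 (adjusted p = 0.44), ZMAT3 by 0.00 ± 0.08 (adjusted p = 0.99), and CCNG1, RPS27L and TIGAR by -0.08 to 0.06. The ZMAT3 value holds for the probe set used. Fitted singly, others of ZMAT3 were called lower with shBAP1 #2 (-0.37, adjusted p = 0.014, and -0.36, adjusted p = 0.042, over all probe sets). The rest differed by -0.19 and 0.10 and were not called. TP53INP1 differed by 0.25 ± 0.14 (adjusted p = 0.19), and by 0.40 without shBAP1 #2 replicate 1 (adjusted p = 0.024). RRM2B differed by 0.25 ± 0.14, and by 0.40 without shBAP1 #1 replicate 2 (adjusted p = 0.025), and TNFRSF10C by 0.20 ± 0.09, and by 0.29 without shBAP1 #1 replicate 1 (adjusted p = 0.033).

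**Figure D4:**
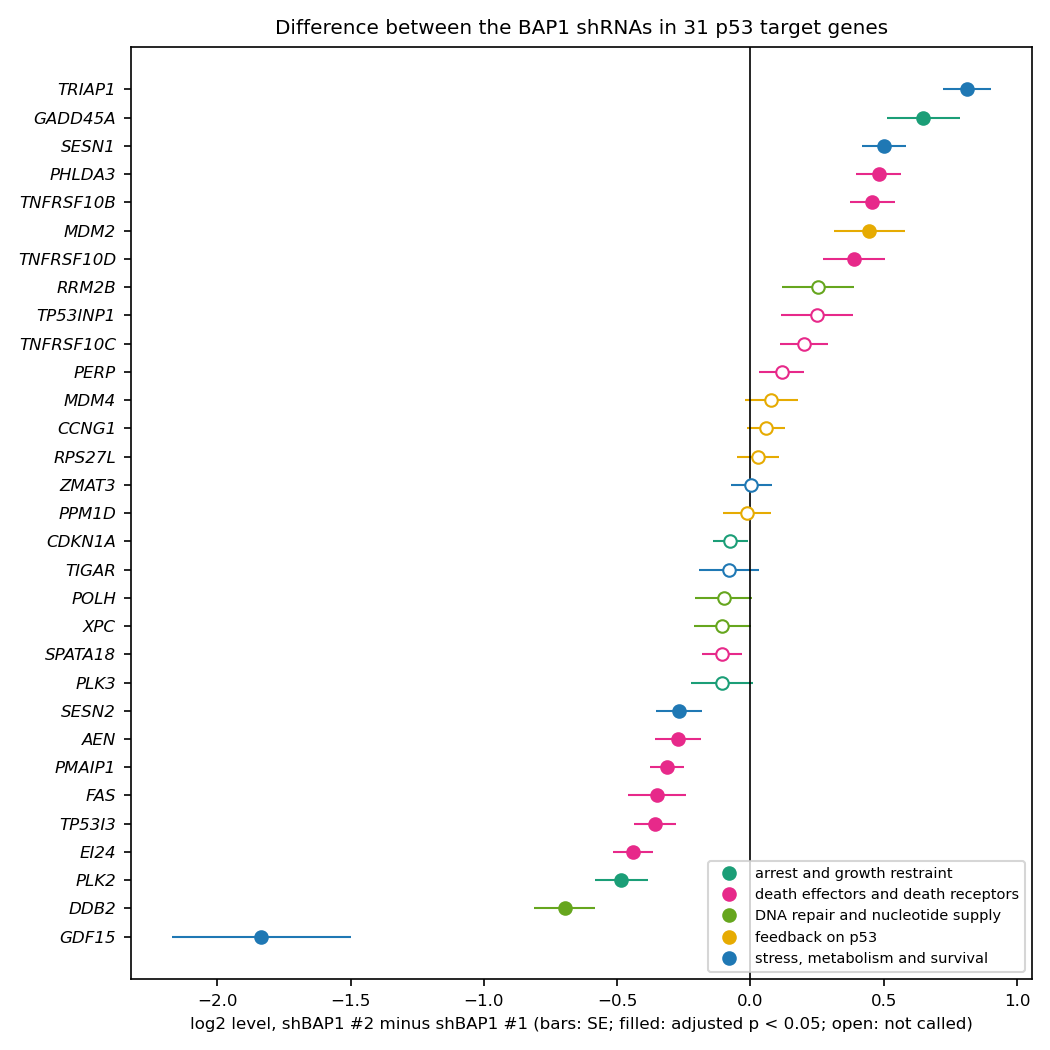
Difference in log2 level, shBAP1 #2 minus shBAP1 #1, for the 31 p53 target genes, ordered from highest to lowest and coloured by role (bars: SE, filled: called). TRIAP1 is at the top at 0.81 and GDF15 at the bottom at -1.84, with CDKN1A and ZMAT3 among the open points near 0.

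By array, the median of all 31 members relative to each gene's control mean was 0.35, 0.45 and 0.31 with shBAP1 #1 and 0.21, 0.33 and 0.32 with shBAP1 #2, against -0.03, -0.04 and 0.09 in shControl. Every knockdown array was above every control array, and replicate 1 of shBAP1 #2 was again the nearest to the controls. It was the lowest of its group in 12 of the 16 members called higher with shBAP1 #2. That count was not made over all genes, and over all probe sets this array also correlated best of its group with the controls. For the death genes the median was 0.44, 0.41 and 0.33 with shBAP1 #1 and 0.12, 0.12 and 0.21 with shBAP1 #2, against -0.05, -0.03 and 0.09 in shControl, and for the 4 repair genes the arrays of the 3 groups overlapped.

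Further genes known as p53 targets, beyond the members, were mixed. Of 55 measured, 26 were higher and 3 lower with shBAP1 #1 (47.3% and 5.45%), against 13.0% and 12.6% of all genes. With shBAP1 #2, 21 were higher and 13 lower (38.2% and 23.6%), against 16.9% and 16.5%. Called higher with both were 15, lower with both 2 and in opposite directions 3, against 6.22%, 5.49% and 3.44% of all genes. Unlike the members, they lay mostly on 1 side between the hairpins. With shBAP1 #2, 9 were higher and 24 lower than with shBAP1 #1 (16.4% and 43.6%), against 17.1% and 17.6% of all genes. The median difference was -0.20. The lower count with shBAP1 #1 dropped to 1 without shControl replicate 1 or 3 and was 5 without shBAP1 #2 replicate 1. TRIM22, an interferon- and p53-inducible ubiquitin ligase, changed by 0.99 and 1.32, and TAP1, a peptide transporter of antigen presentation, by 0.79 and 1.36. SCN3B, a sodium channel subunit with a mean below the median of all probe sets, changed by 1.20 and 0.61, while SAC3D1, a protein of spindle formation, changed by -0.74 and -1.40. The other 2 called lower with shBAP1 #1, named after their values were seen, were TRIM32 (-0.51) and the death effector BAX (-0.70, and -0.63 with shBAP1 #2).

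Of 15 measured regulators and cofactors of p53, 1 was higher and 1 lower with shBAP1 #1 (KAT5 at 0.18 and HIPK2 at -0.33, the second named after its value was seen), or 6.67% each, against 13.0% and 12.6% of all genes. Leaving out 1 array, these counts were 0 to 3 and 0 to 1. With shBAP1 #2, 5 were higher and 3 lower (against 16.9% and 16.5% of all genes), and 3 to 4 and 2 to 5 without 1 array. KAT5, an acetyltransferase that modifies p53, changed by 0.34 with shBAP1 #2, and RCHY1, a ubiquitin ligase for p53, by 0.53 there and by 0.14, not called, with shBAP1 #1.

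Of 20 cell cycle genes known to be lowered through p21 and the DREAM repressor complex, 5 fell and 1 rose with shBAP1 #1 (the mitotic kinase gene PLK1 at 0.67, named after its value was seen), against 12.6% and 13.0% of all genes. With shBAP1 #2, 18 fell, against 16.5% of all genes, and 0 rose (limma, and also 0 at an unadjusted p below 0.05). The median over these 20 genes was -0.22 in shBAP1 #1 and -1.13 in shBAP1 #2, both against shControl, and 15 of the 20 were lower with shBAP1 #2 than with shBAP1 #1, against 17.6% of all genes. By array the median relative to the control mean was -0.16, -0.47 and -0.12 with shBAP1 #1 and -0.61, -1.34 and -1.34 with shBAP1 #2, against -0.02, -0.09 and 0.11 in shControl. Replicate 1 of shBAP1 #2 thus stood apart from the other 2, and without it 19 of the 20 were called lower with shBAP1 #2 and 16 lower than with shBAP1 #1. The mitotic kinase gene CDK1 changed by -0.71 and -1.31, the phosphatase gene CDC25A by -0.93 and -0.94, the cyclin gene CCNB2 by -0.84 and -0.67 and the centriole kinase gene PLK4 by -0.64 and -0.82.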

How the data were processed

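The authors deposited log2 expression values per probe set made with RMA, per the submitters' processing notes, with no version given. RMA forces one intensity distribution on every array, which takes out any shift shared by all transcripts and shrinks changes of dim probe sets. The table holds 54675 probe sets on 9 arrays, with medians of 5.40 to 5.45. Precision is set by the small number of arrays. Gene symbols came from the platform's annotation: 41097 probe sets have 1 symbol, 1801 several, and 11777 are not listed. Of the 41097, 41043 matched a gene table of GRCh38.p14, and 0 symbols changed. No dim probe sets were removed. The linear models (lmFit and eBayes, no covariates, 6 residual and 4.33 prior degrees of freedom) used R 4.3.3 with limma 3.58.1. They were also run on simulated arrays with independent noise and far fewer changed genes than here, which checks the code and not these calls. Probe sets were also fitted singly, adjusted over all 54675, an alternative chosen after seeing the data. Figures used matplotlib 3.10.9 in Python 3.11.15. All members may be named. Of each other list, the 4 genes called the same way with both hairpins and changed most on average were named, or, where fewer than 2 were so called, the 2 with the smallest p for the mean of both. Members and lists were chosen with earlier results of these data known. Alternatives were cyclic loess, equal array medians, dim probe sets left out, other probe set choices, the replicate number as a block, another variance prior, 2 groups per fit and each array left out.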

Additional observations from a re-analysis of the deposited data

Results flagged for a closer look

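For 16 of the 31 p53 targets the effects of the 2 hairpins differed from each other by limma's test of the difference itself (adjusted p below 0.05 over all genes, n = 3 arrays per group), where 34.7% of all genes did. As shBAP1 #2 minus shBAP1 #1 on the log2 scale, the differences were 0.81 for TRIAP1, 0.65 for GADD45A, 0.50 for SESN1, 0.48 for PHLDA3, 0.46 for TNFRSF10B, 0.45 for MDM2 and 0.39 for TNFRSF10D. On the other side they were -1.84 for GDF15, -0.70 for DDB2, -0.48 for PLK2, -0.44 for EI24, -0.36 for TP53I3, -0.35 for FAS, -0.31 for PMAIP1, -0.27 for AEN and -0.27 for SESN2. Those of FAS, TNFRSF10D, AEN, MDM2 and SESN2 were lost in 3 to 6 of 9 fits without 1 array. That of GDF15 rests on 1 probe set of a type open to cross-hybridisation, and was -0.25 (adjusted p = 0.17, limma) with a dim probe set without a suffix. Those of FAS, MDM2 and TNFRSF10D also lost their call with another choice of probe set. That of PMAIP1 was not called on its other probe set fitted singly (-0.22, adjusted p = 0.066, limma over all probe sets).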

How the results depend on the processing

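No call changed direction in any of 17 other settings, 9 of which leave out 1 array. Of the members called, 12 of 18 with shBAP1 #1, 14 of 18 with shBAP1 #2 and 10 of 16 between the hairpins stayed called in all settings run for them (16 for TNFRSF10D and SPATA18, which the filter on dim probe sets removes). Of those not called, 9 of 13, 10 of 13 and 12 of 15 stayed so. The members called lower for the mean of both hairpins numbered 0, against 1, with the mean of probe sets per gene and with probe sets without a suffix preferred. With shBAP1 #2 they numbered 0, against 2, with the second of these choices, as POLH (-0.24, adjusted p = 0.19) and GDF15 (-0.20, adjusted p = 0.28) were then not called. That choice replaced the FAS and GDF15 probe sets by dim ones, and FAS with shBAP1 #1 (0.07, adjusted p = 0.75) was not called either. Leaving out 1 array, 14 to 20 members were higher and 0 to 1 lower with shBAP1 #1, and 14 to 17 higher and 0 to 3 lower with shBAP1 #2. For the mean of both, 16 to 19 were higher and 0 to 1 lower, and between the hairpins 5 to 8 were higher and 6 to 9 lower with shBAP1 #2. Higher with both were 9 (without shControl replicate 1) to 14 members and lower with both 0 to 1. All genes called were 3912 to 5571, 5456 to 6885, 4267 to 6219 and 5793 to 7080 in these 4 comparisons. With the replicate number as a block, 18 members were higher and 0 lower with shBAP1 #1, 16 and 2 with shBAP1 #2, 18 and 1 for the mean of both, and 7 and 9 between the hairpins. Same-numbered arrays deviated from their group means with r = -0.21 to 0.22 over 9 pairs, and others with -0.24 to 0.24, so the numbers were not taken as pairs. Leaving arrays out for the 3 further gene lists was an alternative chosen after seeing the data. Beyond the changes named beside the results, the cause of these shifts was not tested. Dim probe sets (TNFRSF10D, SPATA18) lie where signal over background limits what can be seen.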
